A study of Mus musculus with 33 samples.

Results

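The 10 genes described here encode the cohesin complex, its loader, the SMC pair of condensin and the SMC5/6 pair: Smc1a, Smc3, Rad21, Stag1, Stag2, Nipbl, Smc2, Smc4, Smc5 and Smc6. Smc2 was picked from the comparisons of aged mice, where it leads the genes reported to move one way in APP mice and the other way with JQ1, and its relatives were added by family. All 10 were found among the 38355 genes of the count files, among the 16962 genes that passed the filter on low counts, and among the 40678 loci of the FPKM files. The paper also reports Nipbl, Stag2, Smc5 and Rad21 as higher with JQ1 in APP mice. Since the aged comparisons chose Smc2 and those results were known, the aged values of all 10 genes are a description. They are not offered as a test. Young mice, which the choice did not use, gave the tests.

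SMC proteins are long ATPases that fold back on themselves and work in pairs to close rings around DNA. Cohesin, built on SMC1A and SMC3, holds sister chromatids together in dividing cells and extrudes chromatin loops in all nucleated cells, including neurons that no longer divide. Condensin, built on SMC2 and SMC4, compacts chromosomes for mitosis, and the SMC5/6 complex acts in DNA repair and in the silencing of DNA outside chromosomes.

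RNA was sequenced from the CA1 subregion of the hippocampus, dissected under a microscope, in 2 experiments. The aged mice were 8 to 10 months old and were given daily intraperitoneal injections for 10 days, either JQ1 at 50 mg per kg or a vehicle with 10% DMSO. JQ1 blocks the pocket with which BET proteins bind acetylated lysines on histones. The 3 aged groups were JQ1-treated APP mice (n = 6), vehicle-treated APP mice (n = 6) and vehicle-treated WT mice (n = 4 with values, of 5 labelled). APP mice were of a transgenic line in a C57B/6 background, in which the Thy1 promoter, active in neurons, drives the transgenes. The strain label of the WT mice names the APP line too, but WT is the name in their titles, which was used here. The young mice were C57B/6JRj WT animals of 3 months, given JQ1 at 50 mg per kg (n = 8) or vehicle with 10% DMSO (n = 8) for 13 days. Per the methods, mice of both experiments had been trained in a water maze and were killed 24 h after its last test, the young mice were males, and the APP mice used for behaviour were females. The sex of the aged mice used for RNA is not given in the sources used here. The 2 experiments thus differ in age, genotype and length of treatment, and their files in unit.

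Depth was 14605459 to 25339482 reads on genes per aged sample, and each of the 10 genes had between 114 and 3670 reads in every one of these 16 samples. The 5 CA1 pyramidal markers summed to between 857 and 1463 CPM, read counts scaled to the reads on genes of each sample and its TMM factor, in every aged sample. Along the first principal component, 4 aged samples stood apart from the other 12: JQ1-treated replicates 3 and 4, vehicle-treated APP replicate 4 and WT replicate 1. Ttr, a gene of the choroid plexus, stood at 3065 CPM in WT replicate 4 against 3.40 to 115 CPM in the other aged samples. In the library labelled JQ1-treated APP replicate 4, the glial markers lay in or near the WT range: its 8 microglial markers summed to 261 CPM, against 584 to 940 CPM in the other 5 JQ1-treated APP mice and 239 to 286 CPM in WT mice, and its 4 astrocyte markers to 1221 CPM, against 2543 to 5460 CPM and 1061 to 1092 CPM. Results are therefore also given without it. In bulk tissue, fewer cells of a type and less RNA per cell cannot be told apart.

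Per length, Rad21 was the most abundant of the 10 genes and Smc4 the least. In vehicle-treated APP mice, Rad21, the subunit that closes the cohesin ring, stood at 34.8 ± 1.79 CPM per kb of the longest transcript (SD, n = 6). Smc1a followed at 16.1 ± 1.82 CPM per kb, and Smc3 at 11.1 ± 1.19 CPM per kb. The ranges of Rad21, Smc1a and Smc3 did not overlap each other, while those of Smc3, Stag2, Stag1, Smc6, Smc5 and Nipbl, from 11.1 down to 4.24 CPM per kb, each overlapped the next. The condensin pair came last, with Smc2 at 2.75 ± 0.189 CPM per kb and Smc4 at 2.10 ± 0.557 CPM per kb, and Smc2 overlapped Smc4 but not Nipbl. In WT mice the order was the same, and there Smc2, at 3.34 ± 0.248 CPM per kb (SD, n = 4), lay above Smc4, at 1.62 ± 0.167 CPM per kb, without overlap. In young vehicle-treated mice, measured in FPKM, Rad21 was again first at 38.0 ± 2.55 (SD, n = 8), Smc1a second at 22.0 ± 1.99, and the condensin genes again last, Smc2 at 5.14 ± 0.985 and Smc4 at 3.94 ± 0.733.

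The genes lie on several chromosomes. On mm10, Smc2 spans bases 52439243 to 52488260 of the plus strand of chromosome 4, and Nipbl bases 8290617 to 8444463 of the minus strand of chromosome 15, which also holds Rad21. Smc3 and Smc5 are both on chromosome 19, Smc1a and Stag2 on chromosome X, Smc4 on chromosome 3, Smc6 on chromosome 12 and Stag1 on chromosome 9. What all 10 share is a low GC content: the longest GENCODE transcript has between 38.1% (Stag2) and 46.9% (Smc1a) G and C, against a median of 49.8% over the genes tested, and 8 of the 10 lie below 44.0%, as do 20% of genes. Smc2, at 39.7%, has a lower GC content than all but 5.03% of the genes tested.

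Start regions of 6 of the 10 genes were matched in RefSeq on GRCm38.p6, the build of the files: Smc1a, Smc2, Smc3, Smc5, Smc6 and Stag1. For the 4 whose RefSeq start lies within 22 bases of the GENCODE start, the 250 bases before and the first 30 of the transcript are shown, so that the gene the set was built around can be read beside its SMC relatives. Capitals mark the GC box (GGGCGG or CCGCCC), the CCAAT box (CCAAT or ATTGG) and TTTGAA or TTCAAA, the core of the element found in promoters of genes of the cell cycle. Both strands were searched.
Smc2, chr4:52438971-52439250, plus strand: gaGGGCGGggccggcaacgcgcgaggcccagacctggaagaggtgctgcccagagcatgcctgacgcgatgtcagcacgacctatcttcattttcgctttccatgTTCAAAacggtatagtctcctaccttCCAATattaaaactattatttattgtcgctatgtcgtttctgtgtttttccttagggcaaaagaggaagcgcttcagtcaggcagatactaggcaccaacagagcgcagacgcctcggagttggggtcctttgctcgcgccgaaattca
Smc1a, chrX:152016178-152016457, plus strand: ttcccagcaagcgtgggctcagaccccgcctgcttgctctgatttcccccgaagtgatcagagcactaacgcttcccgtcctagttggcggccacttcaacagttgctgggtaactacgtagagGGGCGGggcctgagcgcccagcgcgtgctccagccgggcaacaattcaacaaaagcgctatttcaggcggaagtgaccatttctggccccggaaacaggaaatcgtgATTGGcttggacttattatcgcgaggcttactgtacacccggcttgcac
Smc3, chr19:53600146-53600425, plus strand: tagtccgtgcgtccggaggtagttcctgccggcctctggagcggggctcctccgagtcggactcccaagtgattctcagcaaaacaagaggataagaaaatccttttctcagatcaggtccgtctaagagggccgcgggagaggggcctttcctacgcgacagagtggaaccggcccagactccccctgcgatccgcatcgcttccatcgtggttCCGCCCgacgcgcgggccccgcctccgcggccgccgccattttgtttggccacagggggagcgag
Smc6, chr12:11265636-11265915, plus strand: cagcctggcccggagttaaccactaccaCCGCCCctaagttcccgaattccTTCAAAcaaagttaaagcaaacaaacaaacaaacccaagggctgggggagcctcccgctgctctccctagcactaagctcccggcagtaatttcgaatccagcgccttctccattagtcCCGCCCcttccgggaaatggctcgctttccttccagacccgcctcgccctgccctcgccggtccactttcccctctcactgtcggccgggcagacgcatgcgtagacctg

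The Smc2 window holds all 3 motifs, the GC box from base -248, TTCAAA from base -145 and CCAAT from base -119 of the RefSeq start. Smc1a holds a GC box and ATTGG, Smc3 only a GC box, and Smc6 a pair of GC boxes and TTCAAA. Over all 32851 mouse start regions in the table, cut to the same length, 34.7% hold the GC box, 36.1% the CCAAT box and 17.2% TTTGAA on either strand, so each match is common and is a description of the letters only. The Smc2 window has 52.1% G and C, near the median of 52.5% over all start regions, unlike the Smc2 transcript. The E box CACGTG was found in none of the 6 windows, nor was the TATA box (TATAAA) or the NRF1 motif (GCATGCGC). An E2F-like run (TTTCCCGC, TTTGGCGC or TTTCGCGC) was found only in that of Stag1. The RefSeq start of Stag1 lies 45650 bases from the GENCODE start, and that of Smc5 1298 bases. Which start was used in these samples was not tested.

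The comparison of JQ1 with vehicle in APP mice asks what BET inhibition did to transcript levels in the presence of the transgenes. All 10 genes were higher on average with JQ1, by 0.13 to 0.67 on the log2 scale with a median of 0.24, against a median of 0.00 over all genes tested, of which 49.8% were higher. Smc2 and Nipbl passed an adjusted p of 0.05 in edgeR's quasi-likelihood test, 2 of 10 genes, where 1.08% of all genes passed in either direction and 0.619% as higher. Because this comparison chose Smc2, and the paper reports Nipbl in it too, nothing is read from that count. Without the 4 samples apart, all 10 were still higher, 76 genes passed, and Smc2 was the 1 of the 10 among them. Without the library labelled JQ1-treated APP replicate 4 alone, all 10 were again higher, by 0.18 to 0.74, and Smc2 was the 1 of the 10 among 73 genes that passed. The plot of CPM by aged group shows the values behind it.

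**Figure D1:**
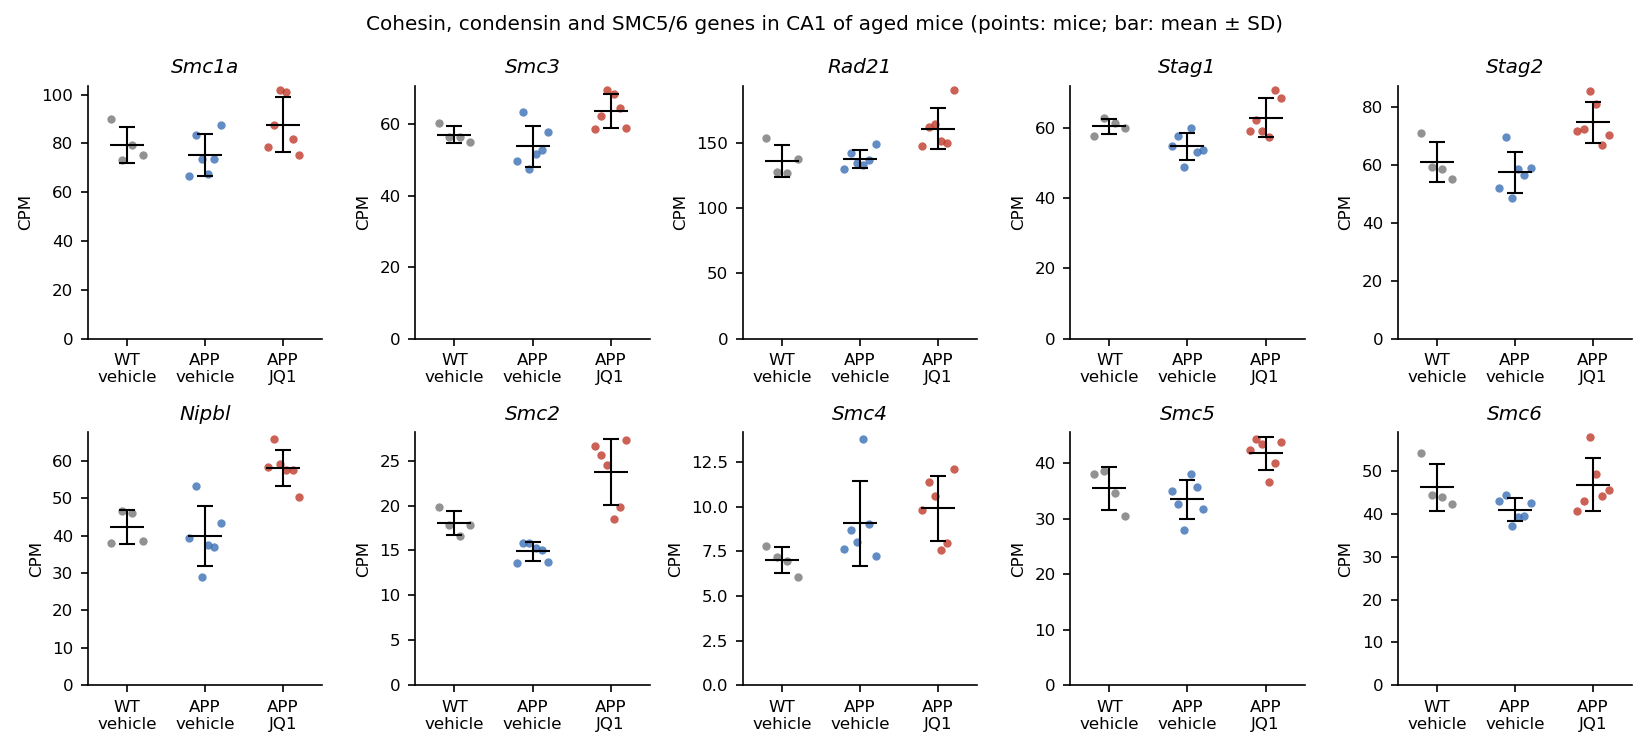
Level of each gene in CPM (y axis, from 0) in each aged mouse (points) by group, with the mean and SD (bars) for WT vehicle (n = 4), APP vehicle (n = 6) and APP JQ1 (n = 6) mice. For Smc2, the JQ1 points lie between 18.5 and 27.3 CPM and the APP vehicle points between 13.6 and 15.9 CPM, the WT points lie between 16.7 and 19.9 CPM, and the other 9 genes overlap between the APP groups.

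Smc2, which encodes 1 of the SMC subunits shared by both condensins, ranged from 18.5 to 27.3 CPM in the 6 JQ1-treated APP mice, with a median of 25.1 CPM. In the 6 vehicle-treated APP mice it ranged from 13.6 to 15.9 CPM, with a median of 15.2 CPM, so that no JQ1-treated mouse fell within the vehicle range. Of all genes tested, 0.878% lay wholly higher with JQ1 in this way. Since Smc2 was picked from this comparison, its separation, rank and calls here are a description only. The 4 WT mice had 19.9, 17.8, 16.7 and 17.8 CPM, all above the vehicle-treated APP mice and overlapping only the lower end of the JQ1-treated ones. The fitted difference between JQ1 and vehicle in APP mice was 0.67 ± 0.10 (SE) on the log2 scale, 1.60-fold. Smc2 ranked 15th of the 16962 genes by p. It passed the threshold in all 16 fits that each left out a single sample, at 0.63 to 0.74, and also without the 4 samples apart, at 0.75.

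Within the JQ1-treated mice, Smc2 fell into 4 values between 24.6 and 27.3 CPM and a lower pair, 18.5 CPM in replicate 4 and 19.8 CPM in replicate 5. Both values lay within the WT range of 16.7 to 19.9 CPM. Top2a, a topoisomerase made in dividing cells, was lowest in the same pair, at 0.600 CPM in replicate 4 and 1.49 CPM in replicate 5, against 2.85 to 4.92 CPM in the other 4. Other genes of dividing cells did not single out this pair: Mki67 was lowest in replicates 4 (1.47 CPM) and 3 (2.28 CPM), with 3.09 CPM in replicate 5, and the list summed to 41.7 CPM in replicate 4, 47.5 CPM in replicate 3 and 49.3 CPM in replicate 5. The 12 genes of dividing cells summed to 41.7 to 61.3 CPM with JQ1 and to 42.1 to 66.0 CPM with vehicle, and none of the 10 tested passed the threshold between these groups. Without replicate 4, whose glial markers lay near the WT range, the difference of Smc2 from vehicle was 0.74. The part of these cells in the levels of Smc2 was not tested.

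Smc4 encodes the partner of SMC2 in condensin. It ranged from 7.60 to 12.1 CPM with JQ1, median 10.2 CPM, and from 7.26 to 13.8 CPM with vehicle, median 8.36 CPM, and the 2 groups overlapped over most of their range. Its difference of 0.13 ± 0.16 (SE) was the smallest of the 10. The highest vehicle value, 13.8 CPM in replicate 4, stood apart from the other 5, which reached 9.04 CPM. Without that sample the difference was 0.29.

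Nipbl, which loads cohesin onto chromatin, ranged from 50.5 to 65.8 CPM with JQ1, median 58.1 CPM, and from 29.0 to 53.5 CPM with vehicle, median 38.5 CPM. A single vehicle-treated mouse, replicate 2 at 53.5 CPM, lay within the JQ1 range, and the WT mice, at 38.1, 46.6, 46.0 and 38.6 CPM, lay wholly below it. The fitted difference from vehicle was 0.54 ± 0.11 (SE), 1.46-fold. It missed the threshold without JQ1-treated replicate 2 (0.51), 3 (0.54) or 4 (0.55), without vehicle-treated APP replicate 3 (0.47), 4 (0.53) or 5 (0.53), and without the 4 samples apart (0.53).

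Stag2, which encodes 1 of the STAG subunits that bind the cohesin ring, came next. It ranged from 67.1 to 85.5 CPM with JQ1, median 72.1 CPM, and from 48.7 to 69.6 CPM with vehicle, median 57.6 CPM, with a difference of 0.38 ± 0.09 (SE). Stag2 ranked 187th by p, just outside the 184 genes past the threshold, and Nipbl 95th. Its paralog Stag1 ranged from 57.4 to 70.8 CPM against 48.9 to 59.8 CPM, a difference of 0.20 ± 0.07 (SE). Both STAG genes overlapped between the groups.

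The ring subunits differed by 0.22 to 0.24. Smc3 ranged from 58.7 to 69.7 CPM with JQ1 and from 47.6 to 63.4 CPM with vehicle, a difference of 0.24 ± 0.08 (SE). Rad21 ranged from 148 to 190.4 CPM against 129.9 to 149 CPM, a difference of 0.23 ± 0.07 (SE), and only the lowest JQ1 value and the highest vehicle value crossed. Smc1a, which pairs with SMC3, ranged from 75.4 to 102 CPM against 66.5 to 87.6 CPM, a difference of 0.22 ± 0.09 (SE). None of the 3 passed the threshold in these 16 samples.

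Of the SMC5/6 pair, Smc5 ranged from 36.7 to 44.2 CPM with JQ1 and from 27.9 to 38.0 CPM with vehicle, a difference of 0.32 ± 0.09 (SE). Only 1 vehicle-treated mouse, replicate 4, exceeded the lowest JQ1-treated one. Smc6 ranged from 40.6 to 58.0 CPM against 37.2 to 44.5 CPM, a difference of 0.19 ± 0.09 (SE), with the highest value in JQ1-treated replicate 3. JQ1-treated replicate 3 held the highest value of 4 of the 10 genes and vehicle-treated APP replicate 3 the lowest of 6, so the same few samples often set the ends of the ranges.

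GC content moved with this comparison over the whole transcriptome. With genes split into 10 bins of GC content, in the lowest bin, up to 41.4%, the median difference between JQ1 and vehicle in APP mice was 0.22 and 85.7% of genes were higher with JQ1, and in the highest bin it was -0.25 and 9.48% were higher. Smc2, Smc4, Smc5, Smc6 and Stag2 belong to the lowest bin, Smc3, Stag1 and Nipbl to the next, whose median was 0.15, Rad21 to the third at 0.11 and Smc1a to the fourth at 0.07. Set against the median of their own bin, Smc4 and Smc6 were lower, and the other 8 genes were higher. The slope of each sample's log2 levels on GC content ran from 0.08 to 0.22 per 10 points of GC in the vehicle-treated APP mice. In the JQ1-treated ones it ran from -0.24 to 0.01, without overlap, so that GC content and treatment cannot be told apart from these samples alone. Among the WT mice, which had no JQ1, replicate 1 had a slope of -0.24, within the JQ1-treated range. WT replicates 3, 4 and 5 had 0.02, 0.06 and 0.08.

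**Figure D2:**
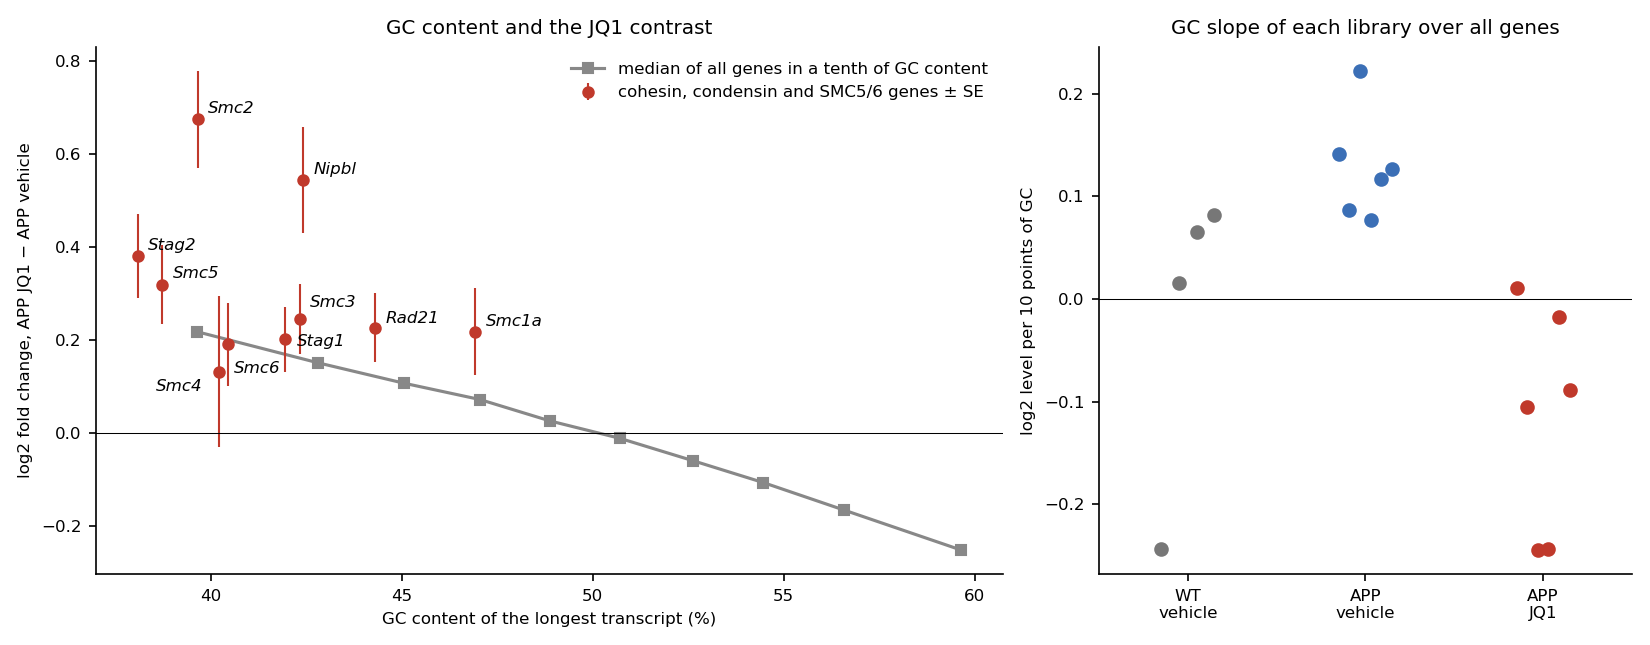
Left, the log2 fold change between JQ1 and vehicle in APP mice (y axis) against the GC content of the longest transcript in percent (x axis), for the 10 genes (red, ± SE) and as the median of each of 10 bins of all genes (grey squares). Right, the slope of log2 level on GC content for each aged sample, in log2 units per 10 points of GC. The medians fall from 0.22 to -0.25 as GC content rises, and Smc2 and Nipbl lie farthest above the grey line.

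With each sample's trend on GC content taken out before the fit, the 10 genes lay much closer to 0. Smc2 kept 0.45 ± 0.11 (SE) of its 0.67, and Nipbl 0.37 ± 0.12 (SE) of its 0.54. Stag2 went from 0.38 to 0.11, Smc5 from 0.32 to 0.07, Smc3 from 0.24 to 0.07, Rad21 from 0.23 to 0.09, Smc1a from 0.22 to 0.14 and Stag1 from 0.20 to 0.02. Smc4 and Smc6 turned from 0.13 and 0.19 to -0.08 and -0.03. The median of the 10 went from 0.24 to 0.08, and none passed the threshold, where 26 of all genes did, 23 of them higher, in place of 184, of which 105 were higher. With length corrected as well, Smc2 stood at 0.48 and Nipbl at 0.38, 43 genes passed, and again none of the 10. DESeq2, without the correction and without the filter used for edgeR, called 749 genes. Among them were 6 of the 10: Smc2, Nipbl, Stag2, Smc5, Smc3 and Rad21. All of these but Smc3 are also in the paper's list for this comparison, which chose Smc2. The share of all genes called by DESeq2 is not given here, and nothing is read from that count.

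The comparison of vehicle-treated APP with vehicle-treated WT mice asks what the transgenes did without the drug. Of the 10 genes, 8 were lower on average in APP mice, with a median of -0.09, but after GC correction 6 were higher, with a median of 0.02, so the set has no direction here that holds under both. Over all genes the uncorrected median was 0.01 and 51.6% were higher. None passed the threshold in edgeR, which 2.57% of all genes did, and 1 of 10 had an unadjusted p under 0.05, as did 14.4% of all genes. The fits with RLE size factors, DESeq2 and GC correction called none either. The paper lists Smc2 among the genes changed between these groups, lower in APP mice, but no fit run here called it. Smc2 was lower by 0.28 ± 0.12 (SE), from 18.0 ± 1.34 CPM (SD, n = 4) in WT to 14.9 ± 1.02 CPM (SD, n = 6) in APP mice, without overlap, as were 2.05% of all genes tested. With GC correction this difference was -0.12. Smc4 went the other way, with 7.82, 7.19, 6.96 and 6.08 CPM in WT mice and a mean of 9.08 ± 2.40 CPM (SD, n = 6) in APP mice, a difference of 0.37 ± 0.18 (SE), which was 0.20 without the APP sample at 13.8 CPM. The other 8 genes differed by -0.17 (Smc6) to 0.01 (Rad21).

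The summed markers of other cells differed between APP and WT mice at the same time. The 8 microglial markers summed to 541 to 1021 CPM in vehicle-treated APP mice and 239 to 286 CPM in WT mice, and 6 of the 8 passed the threshold, all higher. The dividing-cell list summed to 42.1 to 66.0 CPM and 36.5 to 44.3 CPM, and 1 of its 10 genes tested, Top2a, passed. The 4 astrocyte markers summed to 2071 to 6226 CPM and 1061 to 1092 CPM, and 1 of the 4 passed. The 4 neuronal markers summed to 3501 to 4494 CPM in vehicle-treated APP mice and 4395 to 5647 CPM in WT mice, overlapping, with none past the threshold in edgeR and 2 at an unadjusted p under 0.05. No gene of these lists was at 0 in all samples of a group. Their part in the levels of Smc4 and Smc2 was not tested.

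Against WT mice, JQ1-treated APP mice were higher for all 10 genes, by 0.02 (Smc6) to 0.50 (Smc4), with a median of 0.24 against 0.00 over all genes, 50.1% of which were higher. None passed the threshold in edgeR, which 2.06% of all genes did, and 6 of 10 had an unadjusted p under 0.05, as did 14.1% of all genes. Smc4 was higher by 0.50 ± 0.18 (SE), Nipbl by 0.46 ± 0.13 (SE), Smc2 by 0.40 ± 0.12 (SE), and Stag2 by 0.29 ± 0.10 (SE). Nipbl alone of the 10 lay wholly above the WT samples, as did 2.55% of all genes. Smc2 passed the threshold without JQ1-treated replicate 4, its lowest JQ1 sample, at 0.45 (9 of the 10 genes were then higher), and without the 4 samples apart, at 0.50. Nipbl passed without vehicle-treated APP replicate 2 or 3, and DESeq2 called both genes. With GC correction Smc4 stood at 0.43, Nipbl at 0.39 and Smc2 at 0.33. These 3 comparisons share samples, so their values for the 10 genes are given side by side and are not independent of each other.

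**Figure D3:**
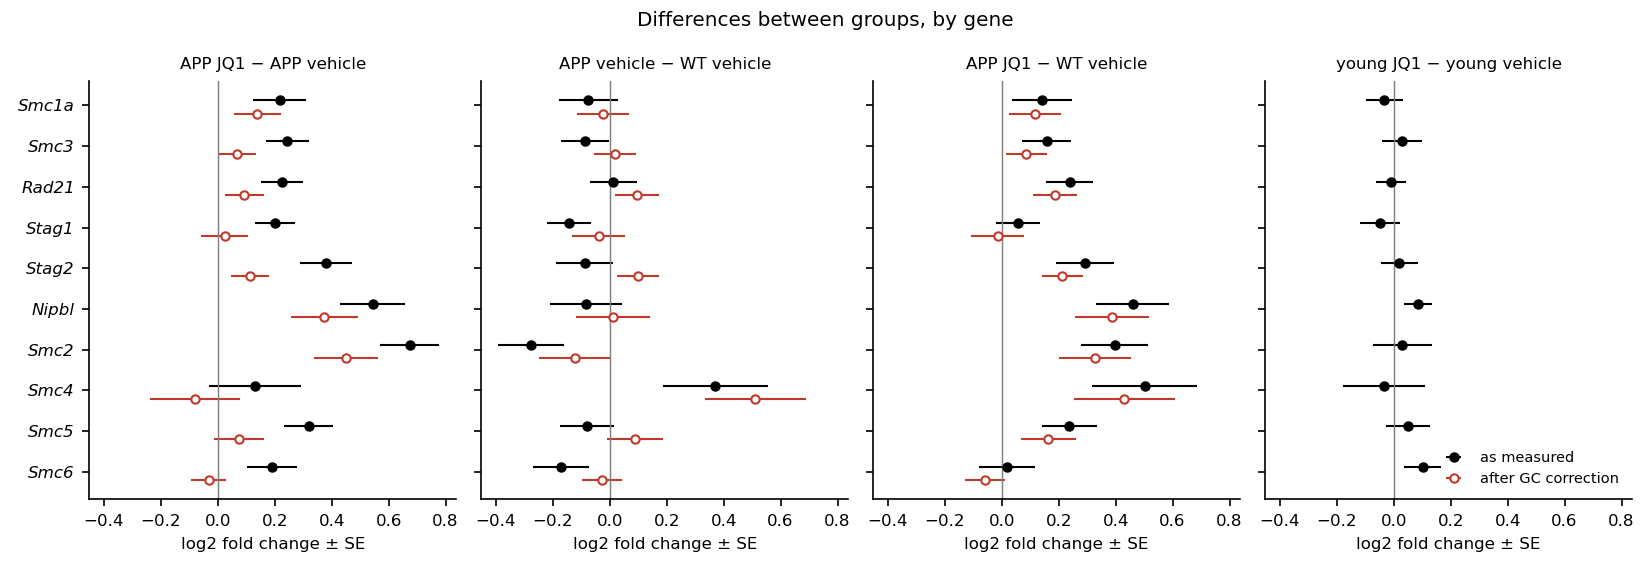
Log2 fold change with its SE (x axis) of each gene (rows) in the 4 comparisons, as measured (filled) and, for aged mice, after GC correction (open red). With JQ1 in APP mice the 10 filled points lie between 0.13 and 0.67, and in young mice between -0.05 and 0.10.

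In young WT mice, no difference between JQ1 and vehicle was detectable for any of the 10 genes in these 16 samples. The differences ran from -0.05 (Stag1) to 0.10 (Smc6) on the log2(FPKM + 0.1) scale, with a median of 0.02 against 0.00 over all loci, and 6 of 10 were higher, as were 51.1% of all loci. None passed limma's threshold, adjusted over 18420 loci of which 0.00543% passed, and none had an unadjusted p under 0.05 with limma, against 4.65% of all loci. The adjusted p with limma was 0.981 or more for every gene.

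Smc2 ranged from 4.51 to 6.13 FPKM in the 8 JQ1-treated young mice, median 5.26, and from 4.14 to 6.87 FPKM in the 8 vehicle-treated ones, median 4.98. The JQ1 range lay inside the vehicle range. The difference was 0.03, with a 95% interval of -0.19 to 0.25, and an exact permutation test gave p = 0.778 (two-sided). Smc4 ranged from 2.37 to 5.37 FPKM against 3.00 to 5.13 FPKM, a difference of -0.03 with an interval of -0.34 to 0.27, the widest of the 10 (p = 0.837, exact permutation test).

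The cohesin loader was the member nearest to a difference in young mice. Nipbl ranged from 9.05 to 10.9 FPKM with JQ1, median 9.84, and from 8.50 to 10.1 FPKM with vehicle, median 9.48. The difference was 0.09, with an interval of -0.02 to 0.19 and p = 0.0805 in the exact permutation test, unadjusted for the 10 genes tested. Smc6 followed with 9.19 ± 0.762 against 8.57 ± 0.865 FPKM (SD, n = 8 each), a difference of 0.10, an interval of -0.04 to 0.24 and p = 0.145 in the exact permutation test.

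The other 6 genes had exact permutation p-values from 0.498 (Stag1) to 0.837 (Rad21). Among the ring subunits, Rad21 stood at 37.8 ± 2.91 FPKM with JQ1 and 38.0 ± 2.55 FPKM with vehicle (SD, n = 8 each), an interval of -0.12 to 0.10. Smc1a had 21.5 ± 2.15 against 22.0 ± 1.99 FPKM, an interval of -0.17 to 0.11, and Smc3 15.7 ± 1.50 against 15.4 ± 1.66 FPKM, an interval of -0.12 to 0.18. Stag1 and Stag2 had intervals of -0.20 to 0.10 and -0.12 to 0.16, and Smc5 of -0.11 to 0.21. Except for Smc4, the intervals bound a change in young mice to within 0.25 on the log2 scale in either direction. Since aged and young files were normalized separately and the experiments differ in more than age, the difference between the JQ1 effects in APP and in young mice was not tested.

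**Figure D4:**
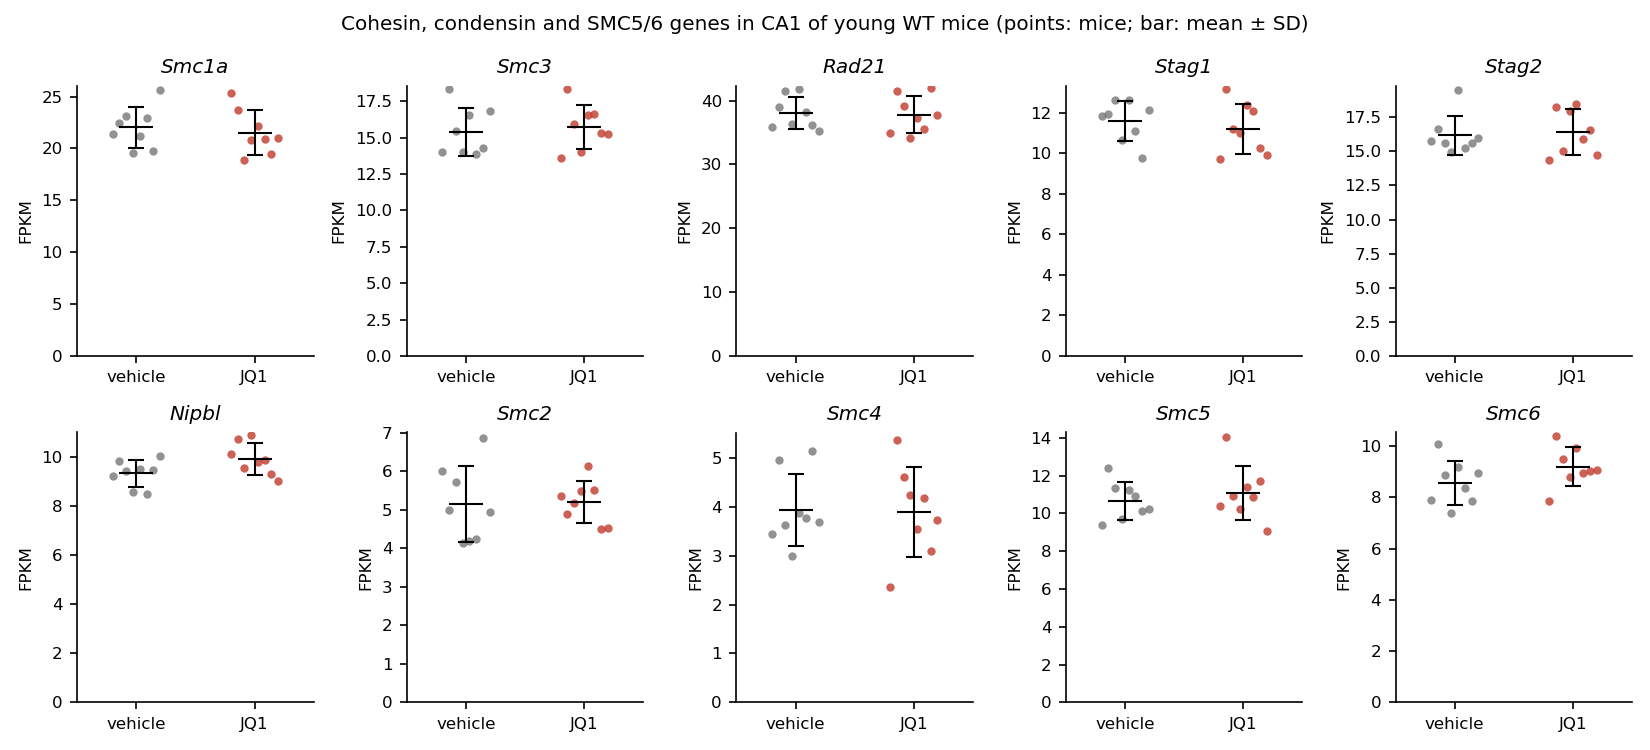
Level of each gene in FPKM (y axis, from 0) in each young WT mouse (points), with the mean and SD (bars) for vehicle (n = 8) and JQ1 (n = 8). The groups overlap for all 10 genes, and Smc2 lies between 4.14 and 6.87 FPKM in both.

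The slopes on GC content overlapped between the young groups. The slope on GC content ran from -0.11 to 0.09 per 10 points with JQ1 and from -0.16 to 0.05 with vehicle, over the 83.1% of loci with a known GC content. In the lowest bin of GC content, where 5 of the 10 genes lie, the median difference with JQ1 was 0.02.

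Partners of these complexes were fitted as well, as 36 genes in 4 lists. The first held other subunits and regulators of cohesin, and the second the non-SMC subunits of condensin plus Mcph1. The others held partners of SMC5/6 plus Smchd1, and proteins of loops and DNA topology. All were chosen with earlier results of these data known. The paper reports Pds5a, Pds5b, Wapl and Top2b as changed by JQ1 in APP mice. Their p-values in that comparison are therefore a description and not a fresh test. Of the 34 tested in aged mice, 1 passed the threshold between JQ1 and vehicle in APP mice, where 1.08% of all genes did. Of the 34, 25 were higher with a median of 0.17, against 49.8% and 0.00 over all genes, and after GC correction 20 were higher with a median of 0.05. That gene was Pds5a, whose protein regulates how long cohesin stays on chromatin. It ranged from 30.4 to 41.8 CPM with JQ1, median 38.7 CPM, and from 15.6 to 35.4 CPM with vehicle, median 24.3 CPM, and the groups overlapped. The difference was 0.61 ± 0.15 (SE), with an adjusted p of 0.0478 (edgeR). Its direction held in every fit run but its call did not. Pds5a passed in 3 of 16 fits that left out a sample (without JQ1-treated replicate 6, vehicle-treated APP replicate 2 or WT replicate 1), and over all 16 its difference was 0.51 to 0.74 and its adjusted p 0.00778 to 0.114 (edgeR). With GC correction it stood at 0.46 (adjusted p = 0.305, edgeR) and without the 4 samples apart at 0.52 (adjusted p = 0.224, edgeR).

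By list, 9 of the 15 cohesin genes tested were higher with JQ1 in APP mice, and 5 of 7 genes of the condensin list. So were 7 of 7 genes of the SMC5/6 list and 4 of 5 loop and topology genes, where 49.8% of all genes were higher. After GC correction these counts were 8, 4, 4 and 4. Besides Pds5a, none passed. The next, named here after their values were seen, were Top2b, Rad21l and Wapl. Top2b, a topoisomerase made also in cells that do not divide, stood at 0.35 ± 0.09 (SE, adjusted p = 0.0531, edgeR). Rad21l, a meiotic relative of Rad21, stood at 0.79 ± 0.25 (SE, adjusted p = 0.111, edgeR). The cohesin release factor Wapl stood at 0.37 ± 0.12 (SE, adjusted p = 0.115, edgeR). DESeq2 called Pds5a, Top2b and Wapl. Top2b and Wapl overlapped between the groups. Rad21l did not, with 1.20 to 1.90 CPM with JQ1 and 0.509 to 1.10 CPM with vehicle, as 0.878% of all genes, but rested on 13 to 47 reads per sample. The median of the condensin list was 0.01, and the difference of Smc2, the gene picked from this comparison, was 0.67. After GC correction these were 0.05 and 0.45.

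Between vehicle-treated APP and WT mice, Top2a, the topoisomerase that works with condensin in mitosis, was the 1 gene of the 34 that passed, where 2.57% of all genes did. The 4 WT mice had 0.498, 0.587, 0.337 and 0.380 CPM, and the 6 vehicle-treated APP mice 1.24 to 3.71 CPM, median 1.71 CPM, a difference of 2.24 ± 0.51 (SE, adjusted p = 0.0207, edgeR). With JQ1, APP mice had 0.600 to 4.92 CPM, median 3.51 CPM, higher than WT by 2.76 ± 0.51 (SE, adjusted p = 0.0137, edgeR). Between JQ1 and vehicle in APP mice it differed by 0.52 ± 0.39 (SE, adjusted p = 0.523, edgeR). Top2a rested on 8 to 122 reads per sample, and with any WT sample left out its adjusted p was 0.0586 to 0.0888 against vehicle-treated APP mice and 0.0477 to 0.0681 against JQ1-treated ones. In young mice no partner passed among the 30 loci of these lists tested, and Top2a, joined there with another gene in 1 locus, was left out.

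Over the 16 aged samples, the 5 genes whose log2 CPM followed Smc2 most closely were Acsl3 (Pearson r = 0.91), Sgce (0.85), Crot (0.85), Vps13a (0.84) and Tnfrsf19 (0.83). Their GC content was 43.2%, 38.4%, 44.1%, 40.1% and 49.6%, and all 5 were higher with JQ1 in APP mice, by 0.26 to 0.81. Of the other 9 genes, Smc5 was nearest to Smc2 (r = 0.77, 38th of 16961 genes), followed by Rad21 (0.75, 61st) and Stag2 (0.70, 128th). Smc4, its partner, had r = 0.46 and stood 1341st. These correlations describe samples that share groups, depth and the GC trend above.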

How the data were processed

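CA1 RNA was sequenced on a HiSeq2000. For aged mice the authors deposited whole-number counts per Ensembl gene, made with STAR on mm10 (at most 2 mismatches) and htseq. For young mice the authors deposited FPKM per locus from cufflinks and cuffdiff, so read depth is unknown there beyond relative depths of 0.913 to 1.32. The members and lists were chosen with earlier results of these data known. Symbols came from GENCODE M21, and 36602 of 38355 IDs matched. Samples were grouped by their labels, and WT replicate 2 was not analysed here. Nothing in the labels ties replicates to batches, and p-values measure the spread between these samples.

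Counts were filtered with filterByExpr, scaled by TMM (factors 0.963 to 1.04) and fitted over all 3 aged groups with edgeR 4.0.16 (quasi-likelihood, R 4.3.3), with p-values adjusted by Benjamini-Hochberg over 16962 genes and a threshold of 0.05. CPM used the TMM-scaled reads on genes. Before scaling, 3 reads correspond to 0.118 to 0.205 CPM. This floor covers counting error only. Loci that reached an FPKM of 0.5 in 8 or more of the 16 samples were tested as log2(FPKM + 0.1) with limma 3.58.1, adjusted over 18420 loci, and for the 10 members with an exact two-sided permutation test in scipy 1.17.1. Fold changes on that scale understate changes of low genes. GC correction removed a spline with 5 degrees of freedom on transcript GC content from each sample. The scripts were tested on simulated data. Named were all members, partners past the threshold and the 5 genes most like Smc2, and, after their values were seen, Top2b, Rad21l and Wapl. Alternatives were DESeq2 1.42.0, RLE size factors, other filters and pseudocounts, only the groups compared, GC and length correction, the replicate number as a block and leaving out each sample.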

Additional observations from a re-analysis of the deposited data

Results flagged for a closer look

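In the 50 sets of group values of the 10 genes, 2 had a sample far from the others, and chance flags about 1 in 20 such groups. Smc4 stood at 13.8 CPM in vehicle-treated APP replicate 4, against 7.26 to 9.04 CPM in the other 5 samples, a gap of 0.728 of the group's range. Stag2 stood at 19.5 FPKM in young vehicle-treated replicate 5, against 14.9 to 16.6 FPKM in the other 7, a gap of 0.637 of the range.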

How the results depend on the processing

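Smc2 kept its direction between JQ1 and vehicle in APP mice under every alternative run. It kept its call under all but GC correction, GC with length correction, and the replicate block with both. Since this comparison chose Smc2, both are a description only. Genes called between JQ1 and vehicle in APP mice numbered 184, but 749 with DESeq2, 26 with GC correction, 43 with GC and length correction, 87 with the replicate block, 36 with the block, GC and length, and 76 without the 4 samples apart, and leaving out 1 sample gave 65 (without JQ1-treated replicate 2) to 446 (without WT replicate 1). Of the 10 members, 2 were called, but 6 with DESeq2, 0 with GC correction, GC and length correction or the block with both, 1 without the samples apart, and 1 to 4 with 1 sample left out. Of the partners, 1 was called, but 3 with DESeq2, 2 with a minimum of 10 counts, 0 in all the other fits just named and with no filter or only the 2 groups, and 0 to 3 with 1 sample left out. Against WT, vehicle-treated APP mice had 436 calls, but 804 with DESeq2, 679 with only the 2 groups, 35 with the block, 72 with the block, GC and length, and 154 (without WT replicate 1) to 601 (without JQ1-treated replicate 4). Members had 0 throughout, and partners 1, but 3 with DESeq2, 2 with RLE or only the 2 groups, 0 with a minimum of 10 counts or either block, and 0 to 2 with 1 sample left out. JQ1-treated APP mice had 349 calls against WT, but 790 with DESeq2, 227 with only the 2 groups, 21 with the block, 59 with the block, GC and length, 667 without the samples apart, and 11 (without WT replicate 5) to 651 (without JQ1-treated replicate 4). Members had 0, but 2 with DESeq2, 1 with GC and length, only the 2 groups (Nipbl both times) or without the samples apart (Smc2), and 0 to 1 with 1 sample left out, and partners 1, but 0 with a minimum of 10 counts or either block, and 0 to 1. In young mice 1 locus passed, but 0 with no filter or the block, and 0 to 2 with 1 sample left out, no member or partner among them. There, leaving out 1 sample moved Smc2 over -0.00989 to 0.0922, Smc3 over -0.00393 to 0.0646, Smc4 over -0.10 to 0.0613, Smc5 over -0.000637 to 0.0889, Stag2 over -0.00580 to 0.0589 and Rad21 over -0.0324 to 0.00943, so their signs are not set. The cause of these shifts was not tested. Whether replicate numbers pair the samples was not tested. Samples of the same number had correlations of -0.107 to 0.342 over 6 APP pairs, 3 above 0.1, and -0.0703 to 0.104 over 8 young pairs. JQ1-treated APP replicates 1 (0.328), 2 (0.285) and 4 (0.342) each correlated most with the vehicle-treated APP mouse of their own number. Replicates 3 (-0.107) and 5 (-0.0356) did not. Samples of different number reached higher values. JQ1-treated APP replicate 3 had 0.473 with vehicle-treated APP replicate 4, and JQ1-treated APP replicate 4 had 0.464 with WT replicate 1. All of these belong to the samples apart on the first principal component.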
